A study of Arabidopsis thaliana with 36 samples.

Results

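The response of Arabidopsis thaliana accession Col-0 to a first period of cold at 28 days of age was examined through pools of rosettes kept for 3 days at 4 °C, set against pools of 28-day control rosettes. The comparison used 6 of the 36 RNA-seq libraries of the series, with 3 libraries a side, and was chosen by the sample labels alone. Col-0 is the reference accession of the species, described in the labels' protocols as intermediate in freezing tolerance, and the labels name no transgene or mutation. Control plants had grown on soil, for a first week with nights given in the labels as 6 °C, then in short days, and for their last week under 16 h days at 20 °C by day and 16 °C at night with 200 µE of light. The cold plants went from that state to a constant 4 °C under 16 h days with 90 µE of light, and they were 3 days older than the controls when sampled. Temperature, light and age therefore changed together and their parts in the values below cannot be told apart. Each library came from homogenised material of 5 replicate samples, pooled before RNA isolation within 1 of 3 independent experiments, and the labels give 15 rosettes for both groups. Pools are numbered 1, 2 and 3 as in the sample titles, and values of the 3 pools are given in that order. The sources used here do not give the time of day of sampling.

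Plants of temperate origin such as Arabidopsis acclimate to cold over days. At low temperature enzymes slow and RNA folds into more stable structures, and acclimating leaves are known to build up ribosomes, RNA chaperones, sugars and protective proteins while expansion growth slows. Genes for cold-regulated effectors, flavonoid synthesis and light harvesting are the best known of this response and are left aside here in favour of the machinery of protein synthesis and turnover, central metabolism, hormones, transport, the cell wall and immunity.

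Of 20263 genes with enough counts to be tested, 5401 were higher (26.7%) and 5681 lower (28%) in the cold pools at an adjusted p under 0.05, and 54.7% were called either way. Changes of at least 2-fold made up 12% of the tested genes on the higher side and 15.3% on the lower side. The values of the control and cold pools did not overlap in 63% of the genes tested, and the median change of all tested genes was -0.03. These shares are the background for the counts below, in which a gene is said to rise or fall where it was called. The lists behind those counts were chosen with earlier results of these data known, so the counts describe the lists and are not independent support. Changes are log2 fold changes ± SE, and levels are edgeR's depth-scaled counts (CPM, counts relative to 1000000 library counts) with TMM scaling, which removes differences in library size and composition but not in transcript length. Libraries held from 20391374 to 30560082 counts, and TMM factors were 0.937 to 1.04 in the control and 1.06 to 1.19 in the cold pools. Scaled by library size alone, 6532 genes were higher and 4409 lower, and the median change was 0.14. With upper quartile scaling 4709 were higher and 6384 lower and the median was -0.13, so the split between higher and lower genes depends on the scaling. In such bulk samples, fewer cells of a type and less RNA per cell cannot be told apart. Summed over 7 rosette leaf markers, levels were between 71459 and 97473 CPM in the control and between 36402 and 49932 CPM in the cold pools, with 6 of the 7 called lower. CAB1, RBCS1A and CAB3 had the highest levels of these markers. CAB1, CAB3 and LHCB2.1 are light-harvesting genes, the class left aside here, so the sum is no measure of leaf tissue apart from that class. Of 12 root markers 7 were tested, their summed level was 85.0 to 257 CPM in the control and 60.4 to 78.1 CPM in the cold pools, and RHD6, which acts in root hair cells, was at 0. PYK10 alone went from a mean of 85.1 to 7.84 CPM, while the median change of the tested root markers was 0.54, with 1 higher and 1 lower. Floral and pollen markers summed to between 1.42 and 2.04 CPM in all 6 pools, and MS1 and GRP17 were at 0. Seed markers summed to 105 to 120 CPM in the control and 136 to 157 CPM in the cold pools, with CRU2, SESA4, EM1 and PER1 at 0. Most of that sum was LEA14, a stress-related gene also expressed in leaves, at a mean of 99.4 and 131 CPM, and 9 of the 13 seed markers had 3 or fewer counts. The part of such shifts in the results below was not tested. LHY (AT1G01060), a morning gene of the circadian clock, went from a mean of 3.63 to 107 CPM, a rise of 4.87 ± 0.30. Whether the clock or the time of day of sampling had a part in the values below was not tested.

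**Figure D1:**
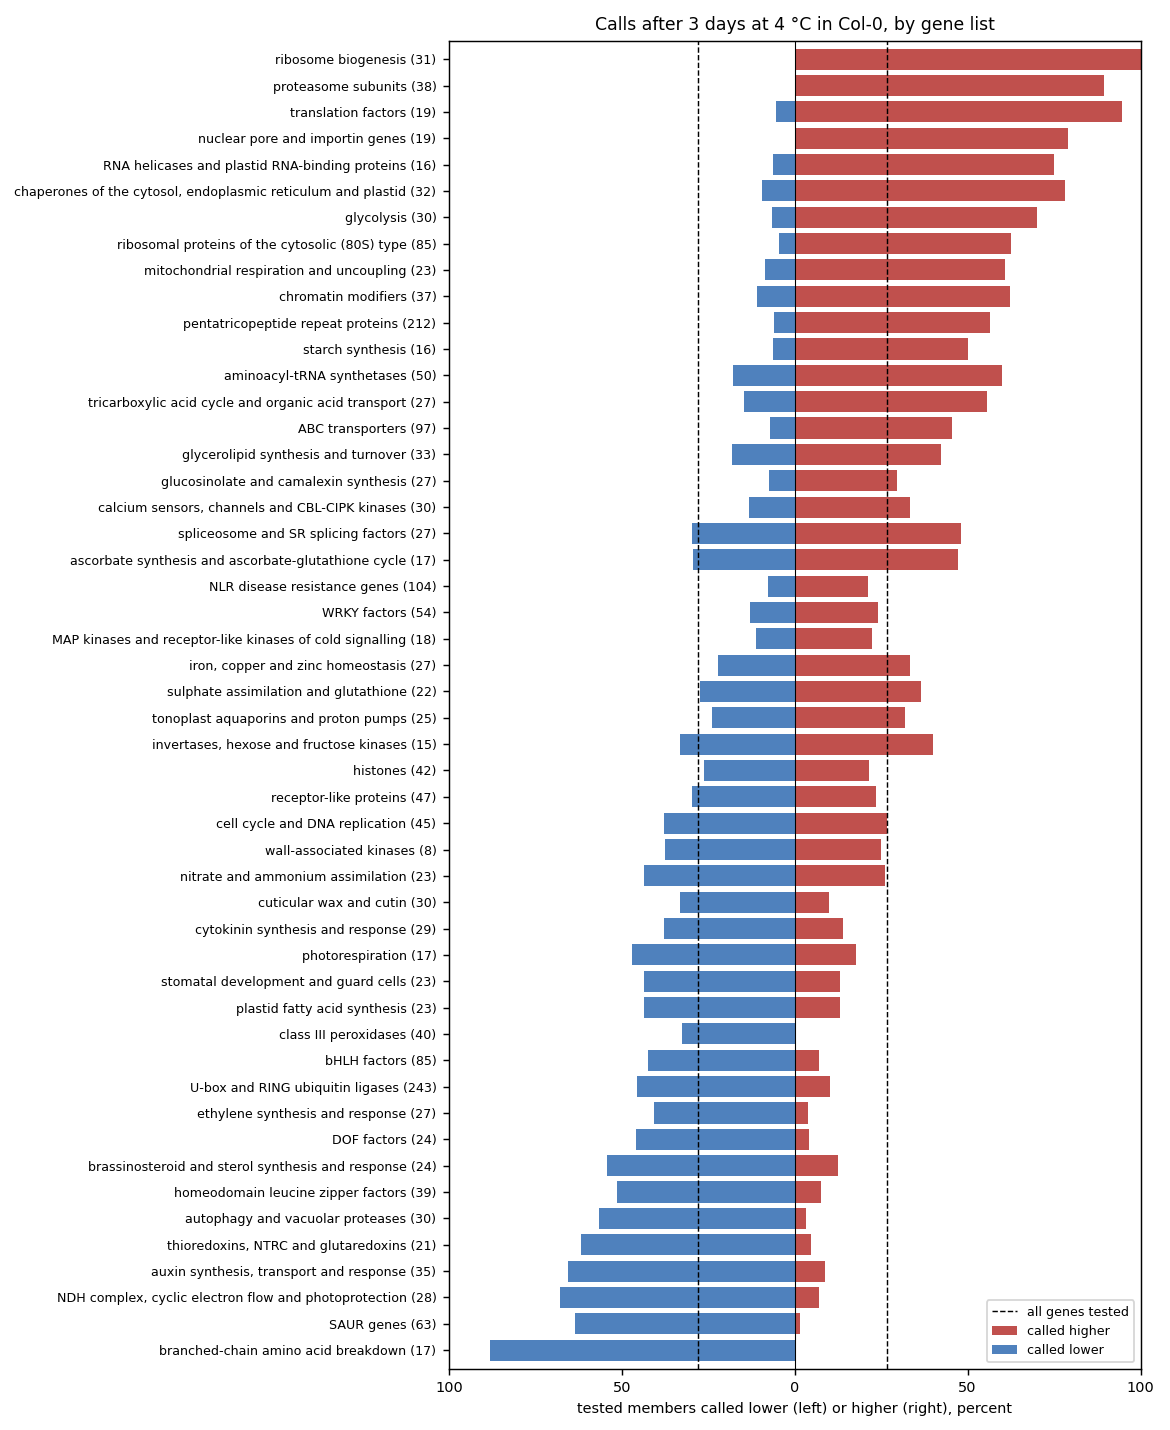
Share of tested members of the 50 gene lists and families described here that were called higher (right) or lower (left) after 3 days at 4 °C in Col-0, in percent, with the number of tested members beside each name. Dashed lines mark the background over all 20263 tested genes, 26.7% higher and 28% lower. Ribosome biogenesis, with all 31 members higher, and branched-chain amino acid breakdown, with 15 of 17 lower, stood at the ends. The lists were chosen with earlier results of these data known.

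Genes of ribosome assembly rose as a block. Ribosomes are made in the nucleolus, where ribosomal RNA is cut and modified and the first proteins are added, and the particles are finished in the cytoplasm. All 31 tested members of the ribosome biogenesis list were higher in cold, 27 of them by at least 2-fold, and their median change was 1.73. Members of this list were chosen with earlier results of these data known. The fibrillarin gene FIB2 (AT4G25630), whose protein methylates ribosomal RNA, stood at 40.5, 39.4 and 60.3 CPM in the control pools and 484, 411 and 382 CPM in the cold pools. Every cold pool was far above every control pool, and the change was 3.19 ± 0.30 (adjusted p = 2.5e-09). AT5G27120, annotated as a NOP56-like protein of the ribonucleoproteins that guide such methylation, stood at 30.9, 36.5 and 44.4 CPM in the control pools and 254, 235 and 243 CPM in the cold pools, a rise of 2.71 ± 0.25 without overlap. The nucleolin gene NUC-L1 (AT1G48920), which acts on ribosomal DNA and pre-ribosomal RNA, went from 391, 382 and 472 to 1221, 1092 and 1030.2 CPM, a rise of 1.43 ± 0.21. PUM24 (AT3G16810), a pumilio protein of pre-ribosomal RNA processing, rose by 2.35 ± 0.25, and the Brix-domain gene AT1G52930 rose by 2.38 ± 0.24. FZF (AT2G24500), annotated as a zinc finger protein, rose by 1.24 ± 0.15, from 28.9, 28.2 and 34.2 to 73.9, 71.6 and 70.0 CPM. Taken per library, the median member lay at -0.24, 0.00 and 0.25 on the log2 scale around the control mean in the control pools and at 1.90, 1.72 and 1.66 in the cold pools.

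Among the structural proteins of the ribosome rises also outnumbered falls. Of 85 tested genes annotated as proteins of the cytosolic ribosome, 53 rose and 4 fell, with a median change of 0.64, and 19 rose by at least 2-fold. The S7e gene AT5G16130 stood at 193, 154 and 194 CPM in the control pools and 515, 531 and 549 CPM in the cold pools, a rise of 1.56 ± 0.17 (adjusted p = 2.5e-08). The S19e gene AT5G61170 rose by 1.42 ± 0.15 and the L19e gene AT3G16780 by 1.51 ± 0.19. These proteins are encoded by families of near-identical copies, so reads can be split between copies and the change of a single copy is uncertain.

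Translation factors rose almost without exception. Of 19 tested members 18 rose and 1 fell, with a median of 0.95. The elongation factor gene LOS1 (AT1G56070), which encodes eEF2 and whose mutant is impaired in protein synthesis in the cold, stood at 785, 710.3 and 1034 CPM in the control pools and 2700.0, 2547 and 2634 CPM in the cold pools, a rise of 1.64 ± 0.22 (adjusted p = 5.4e-07). Subunits of initiation factor eIF3 followed, with EIF3A (AT4G11420) at 1.71 ± 0.22 and EIF3E (AT3G57290) at 1.55 ± 0.14, as did EIF2 ALPHA (AT5G05470), the regulated subunit of eIF2, at 1.65 ± 0.21. The RNA helicase gene EIF4A1 (AT3G13920), part of the cap-binding complex, rose by 0.74 ± 0.13. The member that fell was TCTP (AT3G16640), a growth-associated protein, from 1375, 1596 and 1071 to 604, 651 and 621 CPM, a fall by 1.11 ± 0.23; it was named after its values were seen.

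Enzymes that charge transfer RNAs and the transport of cargo through nuclear pores shared the direction. Of 50 aminoacyl-tRNA synthetase genes 30 rose and 9 fell, with a median of 0.55. The glutamyl/glutaminyl-tRNA synthetase gene AT5G26710 stood at 45.8, 43.1 and 59.5 CPM in the control pools and 126, 117 and 112 CPM in the cold pools, a rise of 1.26 ± 0.17, and the valyl-tRNA synthetase gene TWN2 (AT1G14610) rose by 1.18 ± 0.25. Among 19 genes of nuclear pore proteins and importins 15 rose and none fell (median 0.74), led by NUP155 (AT1G14850) of the inner pore ring, at 13.5, 14.5 and 21.2 CPM in the control pools and 54.2, 48.2 and 55.3 CPM in the cold pools, a change of 1.68 ± 0.25. The pools of these genes did not overlap in 16 of 19 cases, against 63% over all genes.

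**Figure D2:**
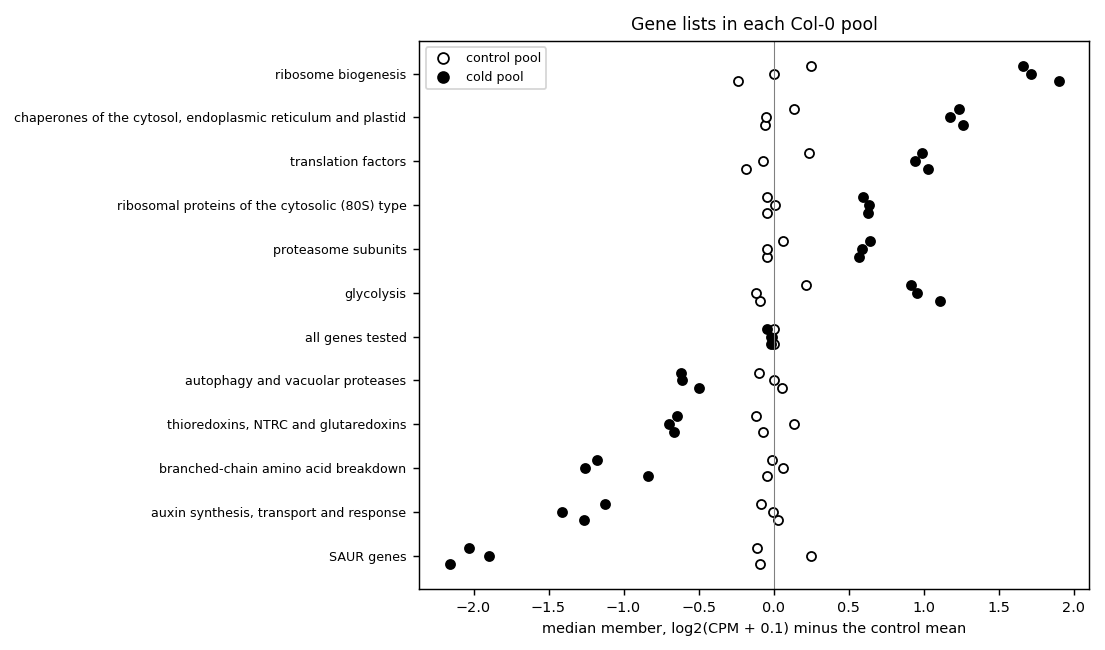
Level of the median list member in each pool, as log2(CPM + 0.1) minus the mean of the 3 control pools, for 11 lists and all genes tested. Open circles are the 3 control pools and filled circles the 3 cold pools. Cold pools lay between 1.66 and 1.90 for ribosome biogenesis and between -2.16 and -1.90 for SAUR genes, while the control pools stayed within 0.25 of 0 in these lists.

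Genes for handling RNA in organelles and for unwinding RNA rose too. Pentatricopeptide repeat proteins bind, cut and edit transcripts in chloroplasts and mitochondria, and of 212 tested members 120 rose and 13 fell (median 0.69). The largest rises at a mean level of at least 3 on the log2 CPM scale were AT1G74750 at 2.25 ± 0.25 and AT1G18900 at 2.14 ± 0.26, both annotated only by their repeat. emb1796 (AT3G49240), an embryo-defective locus, stood at 21.1, 19.0 and 23.6 CPM in the control pools and 77.6, 66.9 and 73.2 CPM in the cold pools, a rise of 1.77 ± 0.22, and BIR6 (AT3G48250), which acts in splicing of a mitochondrial transcript, rose by 1.72 ± 0.20. Among 16 RNA helicases and plastid RNA-binding proteins 12 rose and 1 fell. The mitochondrial helicase gene PMH1 (AT3G22310) stood at 22.1, 21.7 and 30.9 CPM in the control pools and 122, 98.3 and 102 CPM in the cold pools, a rise of 2.104 ± 0.27, and STRS2 (AT5G08620), a helicase of stress responses, rose by 1.77 ± 0.17. LOS4 (AT3G53110), a helicase of mRNA export that cold tolerance requires, rose by 0.64 ± 0.11. Chloroplast RNA-binding proteins were split, with CP29 (AT3G53460) up by 0.72 ± 0.19 and RBP31 (AT4G24770) down by 0.53 ± 0.12. RBP31 was the member that fell, and its pools did not overlap, at 1202, 1395 and 1258 CPM in the control pools and 839.5, 841 and 980.0 CPM in the cold pools.

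Protein folding and protein breakdown by the proteasome were both among the rising classes. Of 32 chaperone genes of the cytosol, endoplasmic reticulum and plastid 25 rose and 3 fell, with a median of 1.22. The luminal HSP70 gene BIP1 (AT5G28540), whose product folds proteins in the endoplasmic reticulum, stood at 75.7, 77.4 and 88.4 CPM in the control pools and 502, 483 and 495 CPM in the cold pools, a rise of 2.62 ± 0.34 (adjusted p = 3.5e-07). BIP2 (AT5G42020) rose by 2.35 ± 0.35, and because both copies are nearly identical their reads cannot be assigned with certainty. In organelles, the plastid disaggregase gene CLPB3 (AT5G15450) stood at 49.3, 52.4 and 77.1 CPM in the control pools and 299.9, 321 and 309 CPM in the cold pools, a rise of 2.38 ± 0.27, and the mitochondrial chaperonin gene HSP60 (AT3G23990) rose by 2.03 ± 0.30. Of 38 proteasome subunits 34 rose and none fell, yet 3 rose by at least 2-fold, and the median was 0.61. The pools did not overlap in 35 of the 38, against 63% over all genes. The regulatory subunit gene AT2G32730 stood at 66.5, 60.2 and 79.7 CPM in the control pools and 165, 152 and 171 CPM in the cold pools, a rise of 1.24 ± 0.19, and the ATPase subunit gene RPT5B (AT1G09100) rose by 1.21 ± 0.14. The ubiquitin ligases that mark proteins for the proteasome went the other way: of 243 U-box and RING genes 111 fell and 25 rose (median -0.50). PUB25 (AT3G19380), a U-box ligase known to act on a negative regulator of cold signalling, was among the larger falls at 15.9, 15.5 and 17 CPM in the control pools and 3.68, 4.98 and 5.32 CPM in the cold pools, a fall by 1.79 ± 0.37.

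Splicing factors split into opposite directions. Serine/arginine-rich (SR) proteins select splice sites, and of 27 tested genes of the spliceosome and SR families 13 rose and 8 fell. Their pools did not overlap in 24 of the 27, against 63% over all genes. RSZ21 (AT1G23860) stood at 26.8, 32.4 and 25.6 CPM in the control pools and 7.32, 6.54 and 6.15 CPM in the cold pools, a fall by 2.08 ± 0.15 (adjusted p = 2.7e-11). SCL33 (AT1G55310) fell by 2.05 ± 0.18, SR30 (AT1G09140) by 1.63 ± 0.15 and RS2Z33 (AT2G37340) by 1.57 ± 0.14. In contrast SKB1 (AT4G31120), the arginine methyltransferase PRMT5 that modifies spliceosomal proteins, rose from 25.8, 23.7 and 27.2 to 67.4, 61.0 and 66.4 CPM, by 1.34 ± 0.13, and SR45 (AT1G16610) rose by 0.86 ± 0.15. Several SR genes are known to produce alternative transcripts, and gene counts do not separate these.

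More chromatin genes rose than fell, and a linker histone gene was among the falls. Of 37 modifiers 23 rose and 4 fell, with a median of 0.82. The plant-specific histone deacetylases of the HD2 family moved together: HDA3 (AT3G44750) stood at 57.6, 37.3 and 46.5 CPM in the control pools and 211, 193 and 207 CPM in the cold pools, a rise of 2.11 ± 0.26, HD2B (AT5G22650) rose by 1.67 ± 0.22, HDT4 (AT2G27840) by 1.65 ± 0.33 and HD2C (AT5G03740) by 0.88 ± 0.15. PIE1 (AT3G12810), the ATPase that places histone variant H2A.Z, rose by 1.68 ± 0.24. The stress-inducible linker histone HIS1-3 (AT2G18050) was low in all pools, at 4.70, 1.82 and 1.51 CPM in the control pools and 0.286, 0.177 and 0.231 CPM in the cold pools, and fell by 3.53 ± 0.61 (adjusted p = 2.0e-05). VIN3 (AT5G57380), a PHD-finger protein that starts the silencing of the floral repressor FLC during long cold, had 1, 0 and 0 counts in the control and 14, 11 and 6 counts in the cold pools (adjusted p = 0.0011). It was named after its values were seen, and its fold change is not given because the control counts are at the floor. Histone genes as a family showed no common direction, with 9 of 42 higher and 11 lower, and 12 higher and 7 lower when scaled by library size alone.

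In carbon metabolism, rises were most frequent in glycolysis. Of 30 glycolytic and fermentative genes 21 rose, 15 of them by at least 2-fold, and 2 fell (median 0.97). The enolase gene LOS2 (AT2G36530) stood at 321, 349 and 449 CPM in the control pools and 1049, 1219 and 1441 CPM in the cold pools, a rise of 1.73 ± 0.24 (adjusted p = 8.9e-07). The phosphoglycerate mutase gene iPGAM1 (AT1G09780) went from 103, 121 and 140.2 to 577, 539.8 and 658 CPM, by 2.28 ± 0.24, and the cytosolic glyceraldehyde-3-phosphate dehydrogenase gene GAPC1 (AT3G04120) rose by 1.28 ± 0.19. Branches at pyruvate also rose: PPDK (AT4G15530), which turns pyruvate back into phosphoenolpyruvate, by 1.93 ± 0.33, and ADH1 (AT1G77120) of ethanol fermentation by 2.45 ± 0.37. AT4G33070, annotated as a pyruvate decarboxylase and named after its values were seen, went from 0.269, 1.20 and 0.690 to 12.7, 12 and 9.86 CPM.

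In the tricarboxylic acid cycle 15 of 27 genes rose and 4 fell. The flavoprotein subunit of succinate dehydrogenase, SDH1-1 (AT5G66760), stood at 51.0, 42.7 and 68.8 CPM in the control pools and 237, 229.9 and 235 CPM in the cold pools, a rise of 2.11 ± 0.23, and the malic enzyme gene NAD-ME2 (AT4G00570) rose by 1.26 ± 0.18. The fumarase genes differed: FUM1 (AT2G47510) of mitochondria rose by 0.86 ± 0.13, whereas FUM2 (AT5G50950), the cytosolic enzyme that makes fumarate stores in leaves, stood at 79.8, 36.7 and 60.1 CPM in the control pools and 15.6, 25 and 37.6 CPM in the cold pools. FUM2 changed by -1.18 ± 0.47 (adjusted p = 0.036), and the change lost its call when control pool 1 or 3 or cold pool 1 or 2 was omitted, at values from -1.16 to -0.90, and with scaling by library size alone (-1.04). In the mitochondrial respiration list 14 of 23 genes rose and 2 fell (median 0.47), with the prohibitin gene PHB2 (AT1G03860), a scaffold of the inner membrane, from 42.6, 49.3 and 51.6 to 107, 111 and 109.9 CPM, by 1.19 ± 0.10. The uncoupling protein gene PUMP1 (AT3G54110) rose by 0.50 ± 0.10.

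Starch synthesis had 8 of 16 genes higher and 1 lower, with a median of 0.42. The granule-bound starch synthase gene GBSS1 (AT1G32900), which makes amylose, stood at 28.9, 12.6 and 23.1 CPM in the control pools and 362, 289.9 and 309 CPM in the cold pools, a rise of 3.89 ± 0.47 (adjusted p = 1.3e-07). APL3 (AT4G39210), a large subunit of ADP-glucose pyrophosphorylase known to respond to sugar, stood at 12.4, 10.9 and 11.9 CPM in the control pools and 120.4, 91.5 and 76.3 CPM in the cold pools, a rise of 3.03 ± 0.39. The small subunit ADG1 (AT5G48300) rose by 1.02 ± 0.16 and the branching enzyme gene SBE2.1 (AT2G36390) by 2.27 ± 0.20. The member that fell was the isoamylase gene ISA1 (AT2G39930), from 62.1, 52.3 and 58.7 to 30.3, 26.6 and 29.8 CPM, by 1.00 ± 0.14; it was named after its values were seen. The list of invertases and hexose kinases was split, 6 higher and 5 lower of 15. The vacuolar invertase gene ATBETAFRUCT4 (AT1G12240) fell by 1.62 ± 0.28, the cytosolic invertase gene CINV1 (AT1G35580) by 1.44 ± 0.18, and UGP1 (AT3G03250), which makes UDP-glucose, rose by 1.52 ± 0.27.

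Falls were broad among genes that plants are known to use when carbon is scarce. Branched-chain amino acids can feed respiration when sugar runs out, and of 17 genes of that breakdown pathway and its electron transfer route 15 fell and none rose (median -1.05). The methylcrotonyl-CoA carboxylase gene MCCA (AT1G03090), a step of leucine breakdown, stood at 25.6, 31.5 and 27.5 CPM in the control pools and 4.54, 3.83 and 3.89 CPM in the cold pools, a fall by 2.79 ± 0.55 (adjusted p = 1.2e-04). DIN4 (AT3G13450), a dark-inducible subunit of the branched-chain keto acid dehydrogenase, went from 27.6, 27.4 and 23.3 to 7.79, 7.19 and 8.79 CPM, a fall by 1.72 ± 0.44, and BCE2 (AT3G06850) of the same complex fell by 1.64 ± 0.29. Homogentisate dioxygenase, HGO (AT5G54080), which breaks down tyrosine, fell by 2.33 ± 0.42, and isovaleryl-CoA dehydrogenase, IVD (AT3G45300), by 0.99 ± 0.28.

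Autophagy delivers cell contents to the vacuole for degradation, with ATG8 proteins coating the forming vesicle. Of 30 autophagy and vacuolar protease genes 17 fell and 1 rose. ATG8E (AT2G45170) stood at 47.5, 80.6 and 22.7 CPM in the control pools and 1.82, 4.98 and 2.87 CPM in the cold pools, a fall by 3.95 ± 0.62 (adjusted p = 5.5e-06). ATG8F (AT4G16520) stood at 155, 126 and 110.2 CPM in the control pools and 19.1, 15.2 and 17.4 CPM in the cold pools, a fall by 2.92 ± 0.36, and APG8H (AT3G15580) fell by 1.79 ± 0.27. In the control group ATG8E varied between pools more than ATG8F, yet neither overlapped its cold pools. The vacuolar papain-type protease gene RD19 (AT4G39090) went from 682, 1049 and 755 to 197, 137 and 136 CPM, a fall by 2.40 ± 0.41. The member that rose, APG7 (AT5G45900), the activating enzyme for ATG8, changed by 0.43 ± 0.14; it was named after its values were seen, and its call ended without cold pool 1.

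Among large falls with no overlap between pools and a mean log2 CPM of at least 3, 5 further genes are described. The 5 are not a full list of the largest falls, as AT5G22920 changed by -5.23 and AT5G19120 by -5.21. AT2G05540, annotated as a glycine-rich protein, stood at 148, 70.8 and 44.5 CPM in the control pools and 1.11, 1.24 and 0.555 CPM in the cold pools, a fall by 6.46 ± 0.71. J8 (AT1G80920), a chloroplast DnaJ-domain chaperone, stood at 429.6, 620.4 and 248 CPM in the control pools and 8.14, 6.07 and 5.32 CPM in the cold pools, a fall by 6.05 ± 0.77. The F-box gene AT1G23390 fell by 5.83 ± 0.62, AT3G15450, annotated as aluminum-induced with a YGL motif, by 5.73 ± 1.16, and the dormancy-associated gene DYL1 (AT1G28330) by 5.21 ± 1.02. Control pool 3 was the lowest control for each of these 5 genes, and all control pools were above all cold pools. The control values of AT3G15450 were 751, 1017 and 211 CPM and those of DYL1 116, 196 and 50.3 CPM. Asparagine synthetase, ASN1 (AT3G47340), which is induced in darkness and starvation, showed the same spread, at 56.9, 81.6 and 30.7 CPM in the control pools and 2.96, 2.53 and 0.972 CPM in the cold pools, and fell by 4.68 ± 1.20 (adjusted p = 0.0018).

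Nitrogen assimilation genes had more falls than rises, 10 and 6 of 23, though scaling by library size alone turned this to 6 falls and 8 rises and 6 of each were left without cold pool 2. The nitrate reductase gene NIA1 (AT1G77760) stood at 83.6, 129 and 162 CPM in the control pools and 29.3, 28.1 and 31.3 CPM in the cold pools, a fall by 2.08 ± 0.35, and glutamate dehydrogenase, GDH1 (AT5G18170), which releases ammonium from glutamate, fell by 2.52 ± 0.44. NRT1.7 (AT1G69870), which loads nitrate into phloem for export from old leaves, stood at 28.0, 59.0 and 42.2 CPM in the control pools and 149, 217 and 209.7 CPM in the cold pools, a rise of 2.16 ± 0.23. Arginine decarboxylases, the entry to putrescine, rose, with ADC1 (AT2G16500) at 1.04 ± 0.21 and ADC2 (AT4G34710) at 1.20 ± 0.23. In sulphur assimilation 8 of 22 genes rose (36.4% against 26.7% of all genes) and 6 fell (27.3% against 28%). The APS reductase gene APR2 (AT1G62180), a controlling step of sulphate reduction, went from 53.3, 54.4 and 97.6 to 176, 295 and 320.0 CPM, by 1.95 ± 0.53. In the photorespiration list 8 genes fell and 3 rose of 17: the peroxisomal aminotransferase gene AGT (AT2G13360) fell by 1.22 ± 0.17, while GLDP2 (AT2G26080), a glycine decarboxylase subunit, rose by 1.51 ± 0.27.

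Genes of growth hormone pathways and their targets fell widely. Auxin promotes cell expansion, and the small SAUR proteins it induces activate the proton pumps that acidify the wall. Of 63 tested SAUR genes 40 fell, 38 of them by at least 2-fold, and 1 rose (median -1.93). AT4G38840 stood at 63.4, 71.0 and 73.1 CPM in the control pools and 13.5, 9.84 and 8.56 CPM in the cold pools, a fall by 2.70 ± 0.25 (adjusted p = 1.4e-09). Its neighbour in number AT4G38860 fell by 2.53 ± 0.28 and AT2G21210 by 2.46 ± 0.30; these genes form clusters of similar copies, so single values are uncertain. The SAUR gene that rose, AT2G35290, was named after its values were seen and did so in 2 of 3 pools, at 1.42, 3.32 and 1.98 CPM in the control pools and 1.39, 33.3 and 29.5 CPM in the cold pools.

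**Figure D3:**
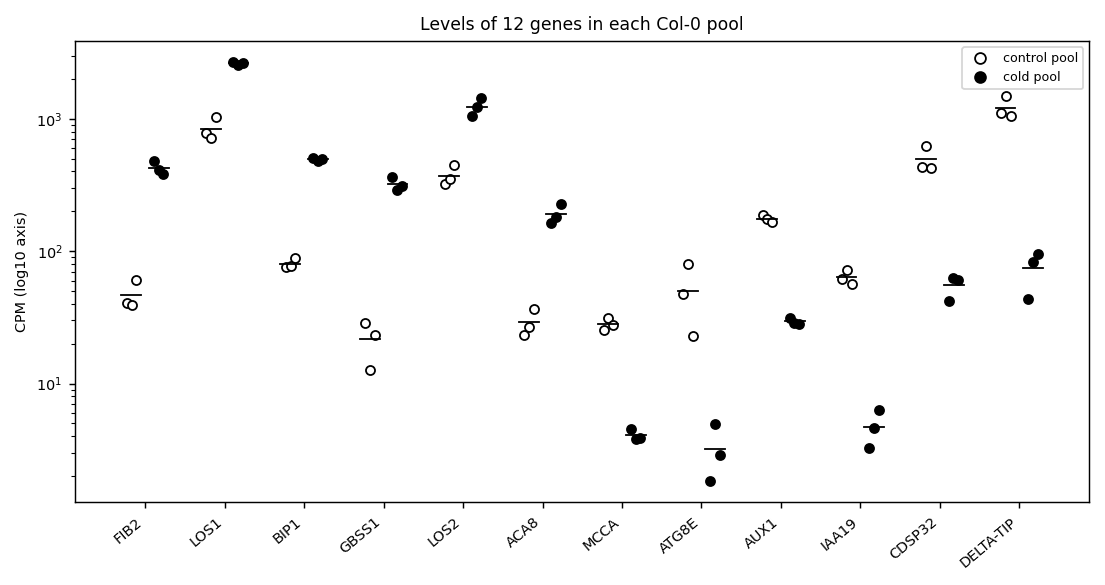
Levels of 6 genes that fell and 6 that rose in each of the 6 Col-0 pools, in CPM on a log10 axis. Open circles are control pools, filled circles cold pools and bars the group means. Control and cold pools did not overlap in any of the 12 genes, and in 63% of all genes tested.

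Upstream of these targets, 23 of 35 genes of auxin synthesis, transport and response fell and 3 rose, with a median of -1.33. The influx carrier gene AUX1 (AT2G38120) stood at 187, 175 and 165 CPM in the control pools and 31.5, 28.9 and 28.1 CPM in the cold pools, a fall by 2.57 ± 0.32, and the efflux carrier gene PIN3 (AT1G70940), which redirects auxin in tropisms, fell by 1.19 ± 0.26. Aux/IAA repressors are induced by auxin itself, and IAA19 (AT3G15540) stood at 61.9, 72.2 and 56.5 CPM in the control pools and 3.25, 4.63 and 6.29 CPM in the cold pools, a fall by 3.76 ± 0.46 (adjusted p = 1.4e-07), with IAA16 (AT3G04730) lower by 2.65 ± 0.25 on the log2 scale. DFL1 (AT5G54510), a GH3 enzyme that conjugates auxin to amino acids, fell by 2.22 ± 0.48. Against that direction, the auxin response factor gene NPH4 (AT5G20730), named after its values were seen, rose by 1.35 ± 0.23, from 15.8, 17.2 and 18.8 to 37.1, 46.3 and 49.1 CPM.

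Other hormone lists also leaned to falls. In brassinosteroid and sterol genes 13 of 24 fell and 3 rose, with the biosynthetic P450 gene CPD (AT5G05690) at 245, 299 and 195 CPM in the control pools and 67.3, 56.5 and 63.7 CPM in the cold pools, a fall by 1.98 ± 0.34. DET2 (AT2G38050), the steroid reductase of the same pathway, fell by 1.49 ± 0.21. In the ethylene list 11 of 27 fell and 1 rose: the ACC oxidase gene EFE (AT1G05010), which makes ethylene, fell by 1.51 ± 0.23, and the receptor gene EIN4 (AT3G04580), named after its values were seen, rose by 1.28 ± 0.17. ACS6 (AT4G11280), an ethylene synthesis gene under MAP kinase control, stood at 10.9, 9.44 and 10.9 CPM in the control pools and 7.61, 28.4 and 34.5 CPM in the cold pools, where cold pool 1 lay below the controls and the others above, and it was not called (adjusted p = 0.12), but was without cold pool 1 (1.59). In the cytokinin list 11 of 29 fell and 4 rose, with the response regulator ARR9 (AT3G57040) down by 1.94 ± 0.26.

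Transcription factor families with known roles in shade and elongation growth leaned the same way. Of 85 bHLH factors 36 fell and 6 rose. KDR (AT1G26945), an atypical bHLH of cell elongation and light signalling, stood at 37.7, 48.1 and 36.0 CPM in the control pools and 2.86, 2.12 and 3.01 CPM in the cold pools, a fall by 3.94 ± 0.47, and the growth-promoting HBI1 (AT2G18300) fell by 1.69 ± 0.31. Of 39 homeodomain leucine zipper factors 20 fell and 3 rose: the shade-avoidance factor HB-2 (AT4G16780) stood at 36.9, 31.6 and 27.2 CPM in the control pools and 4.71, 6.72 and 7.22 CPM in the cold pools, a fall by 2.36 ± 0.33, and HB-7 (AT2G46680), a factor of abscisic acid and water deficit, rose by 1.73 ± 0.47. DOF factors showed 11 falls and 1 rise of 24.

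Cell division genes did not share a direction, with 12 of 45 higher and 17 lower, 13 higher and 11 lower when scaled by library size alone, and 11 of each without control pool 1. Those for DNA replication were among the rises: MCM3 (AT5G46280) of the replicative helicase went from 11.2, 7.97 and 11 to 31.5, 29.3 and 27.7 CPM, by 1.55 ± 0.27, MCM6 (AT5G44635) by 1.24 ± 0.22, and RNR1 (AT2G21790), which makes deoxyribonucleotides, by 1.54 ± 0.25. The sliding clamp gene PCNA1 (AT1G07370) rose by 0.87 ± 0.21. The D-type cyclin gene CYCD1;1 (AT1G70210), which links growth signals to cell cycle entry, stood at 34.6, 22.2 and 30.3 CPM in the control pools and 8.11, 10.1 and 10.0 CPM in the cold pools, a fall by 1.63 ± 0.27.

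In the chloroplast, genes of redox control and of electron flow around photosystem I fell. Thioredoxins pass electrons from the light reactions to enzymes, and of 21 thioredoxin and glutaredoxin genes 13 fell and 1 rose (median -0.63). CDSP32 (AT1G76080), a thioredoxin-like protein that reduces peroxidases and responds to drought, stood at 435, 628 and 426 CPM in the control pools and 42.2, 62.2 and 60.7 CPM in the cold pools, a fall by 3.17 ± 0.22 (adjusted p = 2.2e-11). TRXF2 (AT5G16400) fell by 2.60 ± 0.22 and its partner TRXF1 (AT3G02730), which activates Calvin cycle enzymes, by 1.16 ± 0.21. The member that rose was NTRC (AT2G41680), a reductase with its own thioredoxin domain that uses NADPH, from 166, 155 and 205 to 276, 281 and 317 CPM, by 0.73 ± 0.21. In the list of the NDH complex, cyclic electron flow and photoprotection 19 of 28 fell and 2 rose. PGRL1B (AT4G11960) of cyclic flow stood at 43.6, 28.1 and 29.0 CPM in the control pools and 7.04, 6.95 and 5.55 CPM in the cold pools, a fall by 2.36 ± 0.19, the NDH subunit gene NdhM (AT4G37925) fell by 1.96 ± 0.22, and ferredoxin, FD1 (AT1G10960), by 1.89 ± 0.27.

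Pigment, lipid and antioxidant genes were mixed. NCED4 (AT4G19170), a carotenoid cleavage enzyme that breaks down beta-carotene in plastids, stood at 435, 355 and 421 CPM in the control pools and 34.4, 11.9 and 19.0 CPM in the cold pools, a fall by 4.22 ± 0.36 (adjusted p = 5.0e-10). CLA1 (AT4G15560), the first enzyme of the plastid isoprenoid route, fell by 1.54 ± 0.15, and TAT7 (AT5G53970), a tyrosine transaminase that feeds tocopherol synthesis, rose by 1.56 ± 0.21. Plastid fatty acid synthesis had 10 falls and 3 rises of 23, or 6 of each when scaled by library size alone. The stearoyl-ACP desaturase gene SSI2 (AT2G43710), which makes the first double bond, went from 120.4, 134 and 137 to 304, 304 and 328 CPM, by 1.26 ± 0.20. In glycerolipid metabolism 14 of 33 rose and 6 fell: PES1 (AT1G54570), which esterifies phytol released from chlorophyll, stood at 13.2, 10.6 and 15.0 CPM in the control pools and 83.0, 82.9 and 71.7 CPM in the cold pools, a rise of 2.61 ± 0.29, and the triacylglycerol synthesis gene TAG1 (AT2G19450) rose by 1.01 ± 0.29. PLDALPHA1 (AT3G15730), a phospholipase D, rose by 1.32 ± 0.23. The list of ascorbate and glutathione cycle genes was split, 8 higher and 5 lower of 17. Glutathione reductase, GR1 (AT3G24170), stood at 68.9, 47.6 and 68.6 CPM in the control pools and 241, 235 and 238 CPM in the cold pools, a rise of 1.95 ± 0.23, while the plastid dehydroascorbate reductase gene DHAR3 (AT5G16710) fell by 1.23 ± 0.14.

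Genes for 3 tonoplast water channels fell. Tonoplast aquaporins let water cross the vacuolar membrane during cell expansion. DELTA-TIP (AT3G16240) stood at 1107, 1486 and 1042 CPM in the control pools and 43.1, 83.3 and 95.9 CPM in the cold pools, a fall by 4.03 ± 0.41 (adjusted p = 6.6e-09), GAMMA-TIP (AT2G36830) at 441, 605 and 489 CPM in the control pools and 82.2, 104 and 109.6 CPM in the cold pools, a fall by 2.38 ± 0.21, and TIP2 (AT3G26520) fell by 3.06 ± 0.29. No control pool of these 3 genes overlapped a cold pool, which held for 63% of all genes tested. The vacuolar pyrophosphatase gene AVP1 (AT1G15690), which acidifies the vacuole, went from 803, 897 and 944 to 1509, 1589 and 1571 CPM, by 0.82 ± 0.16. The plasma membrane pump gene HA1 (AT2G18960) changed by 0.62 ± 0.22 (adjusted p = 0.019), which was no longer called when control pool 1 or 2 or cold pool 1 was omitted (0.56 to 0.57). Over the list, 8 of 25 rose (32.0% against 26.7% of all genes) and 6 fell (24.0% against 28%).

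Calcium genes were called higher at a share near the background, 10 of 30 (33.3% against 26.7%), and 4 fell. Cold lets calcium into the cytosol, and pumps and exchangers remove it. The plasma membrane calcium pump gene ACA8 (AT5G57110) stood at 23.2, 26.8 and 36.8 CPM in the control pools and 164, 182 and 228 CPM in the cold pools, a rise of 2.73 ± 0.28 (adjusted p = 8.1e-09), and the vacuolar exchanger genes CAX1 (AT2G38170) and CAX3 (AT3G51860) rose by 0.96 ± 0.26 and 2.098 ± 0.49. CIPK3 (AT2G26980), a kinase of calcium sensing in cold and abscisic acid responses, fell by 1.59 ± 0.23. The median change of the list was 0.23. Of 18 kinases of cold signalling 4 rose (22.2% against 26.7%) and 2 fell (11.1% against 28%). OST1 (AT4G33950), the abscisic acid kinase that stabilises the cold factor ICE1, went from 6.97, 5.85 and 7.84 to 16.3, 26.5 and 23.6 CPM, by 1.68 ± 0.19. MPK6 (AT2G43790), which targets ICE1 for breakdown, fell by 0.66 ± 0.12. ABC transporters had 44 rises and 7 falls among 97 tested (median 0.55), led among well-expressed members by ABCC2 (AT2G34660), a vacuolar importer of glutathione conjugates and anthocyanins, at 17.5, 13.2 and 18.6 CPM in the control pools and 127, 117 and 116 CPM in the cold pools, a rise of 2.87 ± 0.40.

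The cell wall and its tracks changed member by member. Cellulose of the primary wall is made by complexes that hold CESA1, CESA3 and CESA6-type subunits, and CESA1 (AT4G32410) rose by 0.94 ± 0.21, the CESA3 gene CEV1 (AT5G05170) by 0.62 ± 0.17 and CESA5 (AT5G09870) by 2.17 ± 0.42, the last from 73.4, 64.6 and 86.2 to 207, 385 and 415 CPM. Cold pool 1 was the lowest cold pool for all 3 genes and lay above every control pool. The wall galactosidase gene BGAL1 (AT3G13750) stood at 417, 577 and 496 CPM in the control pools and 68.6, 101 and 101 CPM in the cold pools, a fall by 2.46 ± 0.54. Beta-tubulin genes moved in opposite directions, with TUB9 (AT4G20890) up by 1.48 ± 0.11, TUB4 (AT5G44340) up by 1.36 ± 0.20 and TUB8 (AT5G23860) down by 1.82 ± 0.18, and copies of this family are similar enough for reads to be shared. Of 40 class III peroxidases, many of them wall enzymes, 13 fell, a share near the background (32.5% against 28%). None rose, against 26.7% of all genes. KCS6 (AT1G68530), which lengthens fatty acids for cuticular wax, fell by 1.25 ± 0.19. In the wax and cutin list 10 of 30 fell, a share near the background (33.3% against 28%), and 3 rose. At 35 days in Col-0, 2 genes of this list fell and 4 rose. Stomatal genes included 10 falls and 3 rises of 23, with the guard cell potassium channel gene KAT1 (AT5G46240) down by 1.15 ± 0.18 and the peptide gene STOMAGEN (AT4G12970), which promotes stomata, by 1.03 ± 0.22.

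Nutrient and defence metabolism showed few common moves. In iron and metal homeostasis 9 of 27 rose (33.3% against 26.7% of all genes) and 6 fell (22.2% against 28%). The chloroplast ferric reductase gene FRO7 (AT5G49740) stood at 106, 85.9 and 136 CPM in the control pools and 15.0, 16.6 and 19.5 CPM in the cold pools, a fall by 2.68 ± 0.25, whereas the nicotianamine synthase gene NAS1 (AT5G04950), which makes a metal chelator, rose by 2.14 ± 0.46. PHR1 (AT4G28610), the regulator of phosphate starvation genes, rose by 1.01 ± 0.14, from 22.5, 20.8 and 26.7 to 44.6, 47.9 and 48.9 CPM. In glucosinolate synthesis 8 of 27 rose (29.6% against 26.7%) and 2 fell (7.4% against 28%), but without control pool 2 only 2 rose and 2 fell. CYP79B2 (AT4G39950), which starts indole glucosinolates, went from 20.4, 6.47 and 14.3 to 75.4, 54.1 and 57.4 CPM, by 2.18 ± 0.49, and CYP79F1 (AT1G16410) of the aliphatic branch stood at 175, 35.6 and 104 CPM in the control pools and 349, 312 and 305 CPM in the cold pools, a change of 1.62 ± 0.54 whose call ended without control pool 2 (1.20). Control pool 2 was the lowest control pool for both genes.

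Immune receptor families showed no common direction, beside 54.7% of all genes called either way. Of 104 NLR disease resistance genes 22 rose (21.2% against 26.7%) and 8 fell (7.7% against 28%), and 74 were not called. At 35 days in Col-0, 14 of these genes rose and 13 fell. AT4G19520, a TIR-type NLR, stood at 8.35, 12.1 and 13.2 CPM in the control pools and 24.7, 50.5 and 43.1 CPM in the cold pools, a rise of 1.81 ± 0.33. Of 47 receptor-like proteins 11 rose (23.4% against 26.7%) and 14 fell (29.8% against 28%), or 12 and 8 when scaled by library size alone. Of 8 wall-associated kinases 2 rose and 3 fell, or 2 of each without control pool 1. The wall-associated kinase gene WAK1 (AT1G21250), which binds pectin, stood at 23.2, 47.4 and 31.7 CPM in the control pools and 158, 199 and 154 CPM in the cold pools, a rise of 2.32 ± 0.28, and the receptor-like protein gene RLP33 (AT3G05660) rose by 3.48 ± 0.34. Of 54 WRKY factors 13 rose and 7 fell. WRKY54 (AT2G40750), which acts with WRKY70 in salicylate responses, rose by 2.05 ± 0.50. WRKY70 (AT3G56400) itself stood at 24.6, 16.4 and 12.2 CPM in the control pools and 19.3, 85.9 and 57.0 CPM in the cold pools, a change of 1.61 ± 0.55 (adjusted p = 0.014), where cold pool 1 lay among the controls, and the call ended without cold pool 2 (1.11) or control pool 3 (1.40).

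Cold pool 1 stood apart in several other genes. CPK32 (AT3G57530), a calcium-dependent kinase, stood at 10.2, 12.5 and 13.1 CPM in the control pools and 11.5, 53.3 and 43.3 CPM in the cold pools, a change of 1.59 ± 0.55 whose call ended without cold pool 2 (1.20) or control pool 1 (1.49). AT4G16563, an aspartyl protease, stood at 1.35, 5.36 and 2.93 CPM in the control pools and 5.64, 173 and 227 CPM in the cold pools, a rise of 5.40 ± 1.03 that rests on pools 2 and 3. ABCG22 (AT5G06530), an ABC transporter of guard cells, stood at 32.5, 19.3 and 27.5 CPM in the control pools and 76.4, 210.2 and 180.1 CPM in the cold pools, where pool 1 was the lowest of the cold pools. Without cold pool 1 the comparison called 4951 genes higher and 5281 lower. What set this pool apart was not tested.

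Several genes of little known role had large rises. AT2G23910, annotated as an NAD(P)-binding Rossmann-fold protein, stood at 0.577, 1.28 and 1.21 CPM in the control pools and 64.0, 67.7 and 61.9 CPM in the cold pools, a rise of 5.99 ± 0.54 (adjusted p = 1.2e-09). AT1G80130, a tetratricopeptide repeat protein, stood at 5.54, 4.83 and 6.77 CPM in the control pools and 281, 215 and 207 CPM in the cold pools, a rise of 5.36 ± 0.28. AT5G62210, annotated as embryo-specific protein 3, rose by 4.44 ± 0.46 and AT1G16850, an uncharacterized protein, by 4.44 ± 0.45. The UDP-glycosyltransferase gene AT2G16890 rose by 4.73 ± 0.39. AT4G14090, also annotated as a UDP-glycosyltransferase and known to act on anthocyanins, rose by 5.11 ± 0.57 and is one of the flavonoid genes. AT1G04570, a membrane transporter of the major facilitator superfamily, rose by 4.13 ± 0.61, with cold pool 1 above the other cold pools.

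**Figure D4:**
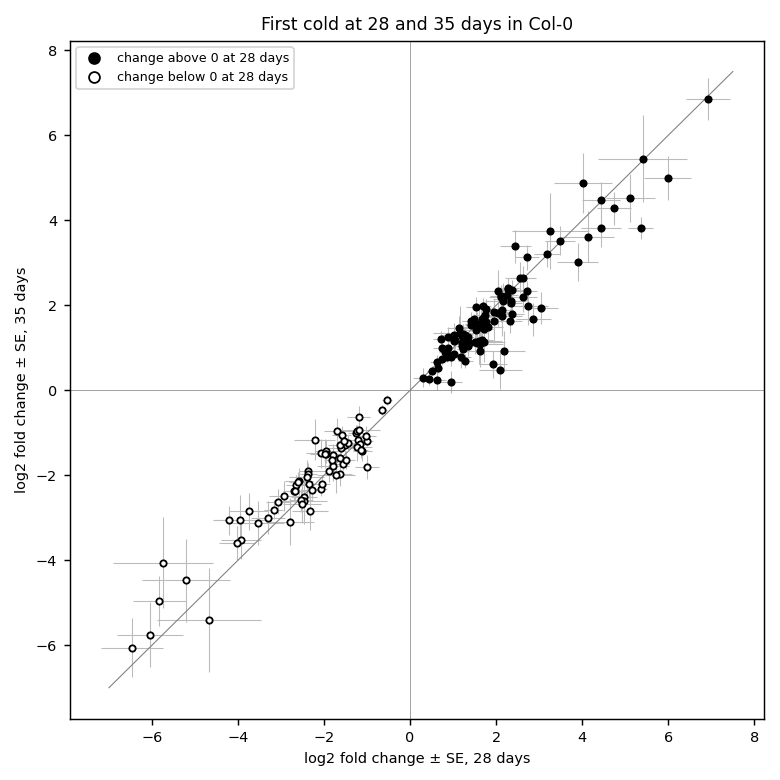
Log2 fold change ± SE of named genes after 3 days at 4 °C in Col-0 at 28 days (x axis) against the change after first cold at 35 days (y axis), for the genes named in the text other than VIN3. Genes with a change above 0 at 28 days are filled and those below 0 open. The 2 comparisons share no library. All of these genes had the same sign at both ages, and none differed between ages at an adjusted p under 0.05.

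Promoters were read as 250 bases before the annotated start of each gene, on both strands, in the RefSeq annotation of TAIR10.1 and on its own sequence. The letters of a motif say nothing of binding. The site II letters TGGGCC, known from ribosomal and cell cycle promoters, were in 16.8% of 19830 promoters of tested genes, in 22% of those of higher genes and in 14.7% of those of lower genes. They were in 54.8% of the 31 ribosome biogenesis promoters, in 54.1% of the 85 ribosomal protein promoters and in 39.5% of the 38 proteasome promoters. The telo box AAACCCTA, known from translation genes, was in 3.66% of all, 24.7% of ribosomal protein and 16.1% of ribosome biogenesis promoters. The C-repeat core CCGAC, bound by CBF factors, was in 14.9% of higher and 11.9% of lower genes against 13% of all. The I-box core GATAAG of light-regulated promoters was in 15.4% of lower and 10.5% of higher genes, and TATCCA, an element of sugar starvation genes in rice, in 17.3% and 12.7%. TATCCA was also in 33.3% of the 30 autophagy promoters and 23.5% of the 17 promoters of branched-chain amino acid breakdown, against 14.2% of all, but also in 28.1% of the 32 chaperone promoters, a list in which most genes rose. The G-box CACGTG was in 28.1% of the 32 chaperone promoters and in 7.38% of all. No test was made of these shares.

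The response at 28 days was set against first cold given to Col-0 plants at 35 days, which had been grown for 1 more week and then kept for 3 days in the same cold conditions. The labels give 4 rosettes for the libraries at 35 days and 15 for those at 28 days, so age and sampling differ together and cannot be told apart. No gene of 20263 differed in its response between the ages in edgeR's quasi-likelihood fit, and DESeq2 called 1. In the edgeR fit 751 genes had an unadjusted p under 0.05, a smaller share than the 0.05 that would pass with no difference in any gene. Of the genes higher at 28 days, 4502 were also called higher at 35 days, 83.4% of the first list and 83.3% of the second, and for lower genes this was 4449, or 78.3% and 87.2%. FIB2 changed by 3.21 ± 0.31 at 35 days, GBSS1 by 3.02 ± 0.46, ATG8E by -3.05 ± 0.58, DELTA-TIP by -3.59 ± 0.40 and IAA19 by -2.85 ± 0.44. In the ribosome biogenesis list 30 of 31 genes rose at 35 days, in branched-chain amino acid breakdown 16 of 17 fell and in the SAUR family 41 of 63 fell. Not all lists kept their balance. At 35 days 19 histone genes rose and 8 fell, against 9 and 11 at 28 days. Cell division genes had 13 rises and 10 falls against 12 and 17, and plastid fatty acid synthesis 7 and 6 against 3 and 10.

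The cold-tolerant accession N14 was treated alike at 28 days, and its reads had been counted on the Col-0 reference. The response differed between accessions in 61 genes, 40 with a more positive and 21 with a more negative change in Col-0, or 0.301% of those tested. Without cold pool 2 of Col-0 this was 27 genes, and without cold pool 1 of N14 it was 89. HPL1 (AT4G15440), hydroperoxide lyase of the oxylipin route to leaf aldehydes, changed by -1.23 ± 0.35 in Col-0 and -5.10 ± 0.38 in N14. LURP1 (AT2G14560), which acts in basal defence, changed by 2.74 ± 0.47 and -0.35 ± 0.44, and ACD6 (AT4G14400), a regulator of salicylate-dependent cell death, by 1.62 ± 0.31 and -1.30 ± 0.31. DEG14 (AT5G27660), a trypsin-family protease gene, changed by -2.29 ± 0.21 in Col-0 and 2.05 ± 0.22 in N14. The thaumatin gene AT1G20030 changed by -3.30 ± 0.40 and -0.70 ± 0.37, the cyclophilin gene AT2G21130 by 1.14 ± 0.28 and 3.26 ± 0.30, and the drought-induced gene DI21 (AT4G15910) by 0.29 ± 0.23 and 2.19 ± 0.25. The effector gene KIN1 (AT5G15960), which has a near-identical copy, changed by 6.92 ± 0.51 and 3.99 ± 0.44. Of the genes described above, the aquaporin gene TIP2 changed by -3.06 ± 0.29 in Col-0 and -4.96 ± 0.32 in N14, which also differed. The calls of HPL1, DEG14 and AT2G21130 held under every alternative tried. Those of LURP1, AT1G20030, TIP2 and KIN1 each ended without at least 1 single pool, and the difference of KIN1 was 2.93 with STAR counts but 0.73 with CLC and 0.95 with kallisto counts. The calls of ACD6 and DI21 ended when only the 4 groups compared were fitted. The ribosome biogenesis genes rose in N14 in 31 of 31 cases.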

How the data were processed

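RNA was sequenced from pooled rosettes after polyA enrichment with a directional library kit, per the labels' protocols. The authors deposited gene counts from STAR 2.5.2a, TopHat2, BWA and CLC and expected counts from kallisto, RSEM and Salmon, with TAIR10 as genome build, per the submitters' processing notes and the labels of the tables; the sources used here do not say if counting was stranded. STAR counts were used as deposited, and the deposited expected counts were rounded to whole numbers for the alternatives. The 36 libraries were fitted with 12 group means in edgeR 4.0.16 (quasi-likelihood test, TMM scaling, genes kept by filterByExpr), with Benjamini-Hochberg adjustment over 20263 genes and a threshold of 0.05. SEs were derived from the F statistic of each gene. CPM used the TMM factors. The step was also run on simulated counts in which few genes changed, with as many rises as falls. In these data 54.7% of genes were called, so that run cannot show how the scaling behaves here. DESeq2 1.42.0, other scalings, filters, counters, the replicate block and leaving out each pool were alternatives. Genes named were the key and most changed members of each list whose mean log2 CPM reached 3, some of the largest changes without overlap at that level after the effector, flavonoid and light-harvesting genes and other leading genes, LHY among them, were set aside, and the largest differences in response; others are said to be chosen after their values were seen. The members and lists were chosen with earlier results of these data known. Gene names came from the RefSeq annotation. Replicates of a group differed by more than sampling noise.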

Additional observations from a re-analysis of the deposited data

Results flagged for a closer look

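The response to first cold at 28 days differed between Col-0 and N14 in 9 of the genes named, by the test of the difference itself in edgeR's quasi-likelihood fit, given as the log2 change in Col-0 minus that in N14. The difference was 3.87 for HPL1 (adjusted p = 0.0001), 3.08 for LURP1 (adjusted p = 0.019), 2.93 for KIN1 (adjusted p = 0.015), 2.92 for ACD6 (adjusted p = 0.00061) and 1.90 for TIP2 (adjusted p = 0.019). It was -4.34 for DEG14 (adjusted p = 3.4e-10), -2.60 for AT1G20030 (adjusted p = 0.018), -2.11 for AT2G21130 (adjusted p = 0.0099) and -1.90 for DI21 (adjusted p = 0.0053). N14 reads were counted on the Col-0 reference, and the part of sequence differences between the accessions in these values was not tested.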

How the results depend on the processing

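The counts of genes higher and lower after first cold stayed within 1.5 times of 5401 and 5681 under every alternative tried, from 4641 to 5109 higher and 4965 to 5419 lower when 1 of the 6 pools was left out. Scaling by library size alone gave 6532 higher and 4409 lower, or 59.7% of calls higher in place of 48.7%, with a median change of all genes of 0.14, and upper quartile scaling gave 4709 and 6384, or 42.5% higher, with a median of -0.13. No gene differed in response from that at 35 days under any alternative except DESeq2, which called 1. The 61 genes that differed from N14 became 176 with DESeq2 and 19 when only the groups compared were fitted, with or without the replicate block, and 27 to 89 when a pool was left out. Among 191 values of named genes none changed sign, and 12 lost their call under at least 1 alternative. The cause of these changes was not tested.

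The replicate numbers paired the pools only weakly. The deviations of same-numbered control and cold pools correlated at 0.15, 0.26 and 0.09, and those of unlike numbers at -0.17 to 0.03. Each pool correlated best with its own number. With the replicate block and all libraries, 5558 genes were higher and 5866 lower, and 88 differed from N14. With the block and only the groups compared, 5468 were higher and 5409 lower. In that fit the N14 differences of AT1G20030, LURP1, TIP2, ACD6 and DI21 lost their calls. These genes also lost them with only the groups compared and no block, and none of them did with the block and all libraries. With 3 pools a side, genes that were not called may still have changed.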
